A study of Rattus norvegicus with 16 samples.

Results

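The genes described here encode the hydrolases and membrane proteins of the lysosome. They are a fixed set of 32 genes, chosen by symbol with no measured value in the rule. Earlier results of these data were known when the set was chosen. Of the 32, 30 were found in the tables of 17168 genes, and all 30 were among the 11162 genes tested. Naglu and Sgsh, which encode enzymes of heparan sulfate breakdown, were not analysed here. The 32 genes comprise 9 proteases, 8 glycosidases and sulfohydrolases, 3 lipid hydrolases, 3 activator and granulin proteins, 6 membrane proteins, 2 proton pump proteins and the transcription factor Tfeb.

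Messenger RNA was sequenced from the livers of Sprague Dawley rats, an outbred strain, taken at 20 postnatal weeks. The 16 libraries formed 4 groups of 4: wild type on chow, wild type on a methionine-choline deficient (MCD) diet, tspo -/- (knockout) on chow and knockout on MCD. Per the protocols in the labels, both genotypes were reared on ordinary feed until 12 weeks of age and then received 1 of the 2 diets for 8 weeks, with the MCD diet meant to induce steatohepatitis. TSPO is a protein of the outer mitochondrial membrane. The labels do not say how the allele was made or whether it is confined to a cell type, and the series title speaks of mice where every sample is labelled as rat. They also do not say that each library came from its own animal, so the spread behind every p-value may be partly technical.

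Lysosomes digest macromolecules at acid pH. A vacuolar proton pump acidifies the lumen, soluble hydrolases reach it mostly through mannose 6-phosphate receptors, and heavily glycosylated membrane proteins such as LAMP1 and LAMP2 line the limiting membrane. The transcription factor TFEB binds the CLEAR element, built around the letters CACGTG, in the promoters of many of these genes. In the liver, hepatocytes use lysosomes to turn over their own proteins, organelles and lipid droplets, and Kupffer cells and other macrophages use them to digest what they engulf. The MCD diet limits phosphatidylcholine synthesis and the export of lipoproteins, and is known for filling the liver with fat and inflaming it.

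The promoters of 4 of these genes are shown because they hold the core that TFEB reads, and because the 4 genes differed in their response to the diet. A promoter window, from RefSeq on the GRCr8 build, was found for 26 of the 32 genes, and the 250 bases before the annotated start were searched. The 6 letters CACGTG read the same on both strands. They occurred in 6 of the 26 windows (23.1%), against 5.59% of all 33469 windows and 7.99% of the 8803 windows of genes tested. More than 1 copy was found in 2 of the 26 (7.69%), against 0.43% of all windows and 0.852% of those of genes tested. The longer form TCACGTG, on either strand and overlapping the core, was in 5 of the 26 (19.2%), against 2.79% and 4.74%. Of the 6 genes with a core, Cd63 alone lacked this longer form. Lamp1 held 5 cores, starting 183, 167, 150, 65 and 38 bases before the start site, and Ctsd held 2, at 157 and 10 bases. Single cores lay 190 bases before the start of Cd63, 22 before Mcoln1, 100 before Glb1 and 37 before Sgsh. The Lamp1 window is chr16:83075064-83075313 on the minus strand, the Ctsd window chr1:206968822-206969071 on the minus strand, the Cd63 window chr7:1921894-1922143 on the plus strand and the Mcoln1 window chr12:6358008-6358257 on the plus strand. Each is written 5′ to 3′ towards the gene, with the CACGTG cores in capitals.
Lamp1: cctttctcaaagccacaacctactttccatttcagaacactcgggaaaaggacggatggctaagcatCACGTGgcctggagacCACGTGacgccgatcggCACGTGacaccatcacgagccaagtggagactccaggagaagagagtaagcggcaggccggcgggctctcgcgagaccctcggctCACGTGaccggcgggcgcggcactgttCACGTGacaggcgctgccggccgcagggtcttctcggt
Ctsd: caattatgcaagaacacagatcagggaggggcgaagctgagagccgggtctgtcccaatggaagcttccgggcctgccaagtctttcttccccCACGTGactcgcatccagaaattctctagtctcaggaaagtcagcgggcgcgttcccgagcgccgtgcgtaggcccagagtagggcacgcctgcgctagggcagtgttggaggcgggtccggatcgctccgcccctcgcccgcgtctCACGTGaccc
Cd63: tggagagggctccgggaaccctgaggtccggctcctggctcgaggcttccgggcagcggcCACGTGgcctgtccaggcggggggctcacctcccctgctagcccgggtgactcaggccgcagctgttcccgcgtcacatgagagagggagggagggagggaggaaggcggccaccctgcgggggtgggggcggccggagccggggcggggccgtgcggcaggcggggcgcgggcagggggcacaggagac
Mcoln1: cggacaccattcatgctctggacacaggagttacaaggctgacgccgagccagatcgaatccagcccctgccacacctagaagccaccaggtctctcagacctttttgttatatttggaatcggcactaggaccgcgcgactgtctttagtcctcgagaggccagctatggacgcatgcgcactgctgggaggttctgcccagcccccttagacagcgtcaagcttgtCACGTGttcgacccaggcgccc
A match is a description of the letters and not of binding. Of the genes with a core, Ctsd rose with MCD in the wild type, Glb1 in the knockout and Cd63 in both, while Lamp1 and Mcoln1 passed in neither genotype with all libraries, TMM scaling and no covariate, and Sgsh was not analysed here. With the message index described below as a covariate, Lamp1 and Mcoln1 passed as higher in the wild type but not in the knockout. In the knockout of that fit Ctsd passed as higher, at 0.59 (edgeR adjusted p = 0.0358). Glb1 no longer passed there, at 0.27 (edgeR adjusted p = 0.290). Scarb2 and Gm2a, with large changes given below, have no CACGTG in their windows.

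Library totals ran from 8745756 to 15762650 counts. Levels below are in CPM, the count divided by the library's total and by its TMM factor, which scales each library so that the typical gene does not move. They are always listed for libraries 1 to 4 in that order. Levels are compared within a gene only, since they are not divided by transcript length. The check of the knockout was mixed: Tspo read 4.25 ± 0.728 CPM in the wild type on chow and 8.42 ± 0.778 on MCD (SD, n = 4), and 0.656 to 1.66 CPM in 6 of the 8 libraries labelled knockout, but 4.42 CPM in the library labelled knockout on chow 4 and 4.17 CPM in that labelled knockout on MCD 1. Those libraries and wild type on chow 4 also stood apart on the second principal component of all genes, at -63.7, -44.2 and -33. They had the lowest values of an index that sets long against short messages (-1.79, -0.893 and -0.639 on the log2 scale), used here as a sign of RNA or library quality. In the other libraries the index was -0.209 to 0.341 on chow and 1.03 to 1.59 on MCD, so it moved with the diet. The counts of lysosomal genes are therefore also given without these 3 libraries and with the index as a covariate. Outside these 3 libraries the index did not overlap between the diets, so there it cannot be told apart from the diet. Calls gained or lost with the index as a covariate are to be read with that limit.

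With the MCD diet, lysosomal genes moved in both directions in both genotypes. In the wild type 7 of the 30 rose and 6 fell, and in the knockout again 7 rose and 6 fell (edgeR quasi-likelihood test, adjusted p under 0.05 over all genes tested). These are 23.3% and 20% of the set in each genotype, near the background: 18.2% of all genes rose and 15.9% fell in the wild type, and 21.9% rose and 18.5% fell in the knockout. The median log2 fold over the 30 was 0.155 (wild type) and -0.038 (knockout), beside -0.002 and 0.041 over all genes. In this fit, with all libraries, both shares and medians were thus close to those of all genes. In the wild type all MCD libraries lay above all chow libraries for 10 of the 30 genes and below them for 4. In the knockout this held for 7 and 6. Over all genes tested, 20.1% lay wholly above and 17.9% wholly below in the wild type, and 17.6% and 14% in the knockout. Separate diet groups, as told for single genes below, are thus frequent among all genes. Cd63, Scarb2, Laptm5, Ppt1 and Ctsz rose in both genotypes, and Gm2a, Ctsh, Lamp2, Gla, Hexa and Lipa fell in both. Ctsd and Asah1 passed in the wild type alone, Glb1 and Grn in the knockout alone, 15 genes passed in neither, and none passed in opposite directions; the difference between the genotypes was not significant for any of them, as given below. Without the 3 libraries that stood apart, 10 of the 30 rose and 6 fell in the wild type, and 11 of the 30 rose and 7 fell in the knockout. The shares of all genes in that setting, in the same order, were 25.8%, 24.7%, 27.9% and 23.8%. With the index as a covariate 8 of the 30 rose and 3 fell in the wild type, beside 15.2% and 14.6% of all genes. In the knockout 6 of the 30 rose and 5 fell, beside 14.3% and 12.2%. The index as a covariate thereby added Man2b1 to the falls of both genotypes, Lamp1 and Mcoln1 to the rises of the wild type, and Ctsd and Asah1 to those of the knockout. It removed Laptm5, Gla, Hexa, Lipa and Lamp2 in the wild type, and Laptm5, Glb1, Grn, Hexa and Lamp2 in the knockout. In the wild type 4 rose without chow library 1, and 3 fell without chow library 2, chow library 4, MCD library 2 or MCD library 3. The shares of all genes in those fits are not given here, so these counts do not set the lysosomal genes apart.

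These directions are relative to the typical gene. The TMM factors were 0.644 to 1.00 on chow and 1.14 to 1.35 on MCD, so the scaling itself differed between the diets. Scaled by library totals alone, the median of all genes moved to 0.528 (wild type) and 0.765 (knockout), and 17 lysosomal genes rose and 1 fell in the wild type, with 19 and 1 in the knockout. All genes on that scale were called higher in 43.1% and lower in 4.55% (wild type), and higher in 57.8% and lower in 3.63% (knockout). On that scale the calls of a fall were lost in each genotype for all but Gm2a, and the folds of Gla, Hexa and Lipa in the wild type and of Hexa and Lipa in the knockout turned positive without passing the test. Deposited tables give relative amounts, and in bulk liver fewer cells of a type and less RNA per cell cannot be told apart.

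**Figure D1:**
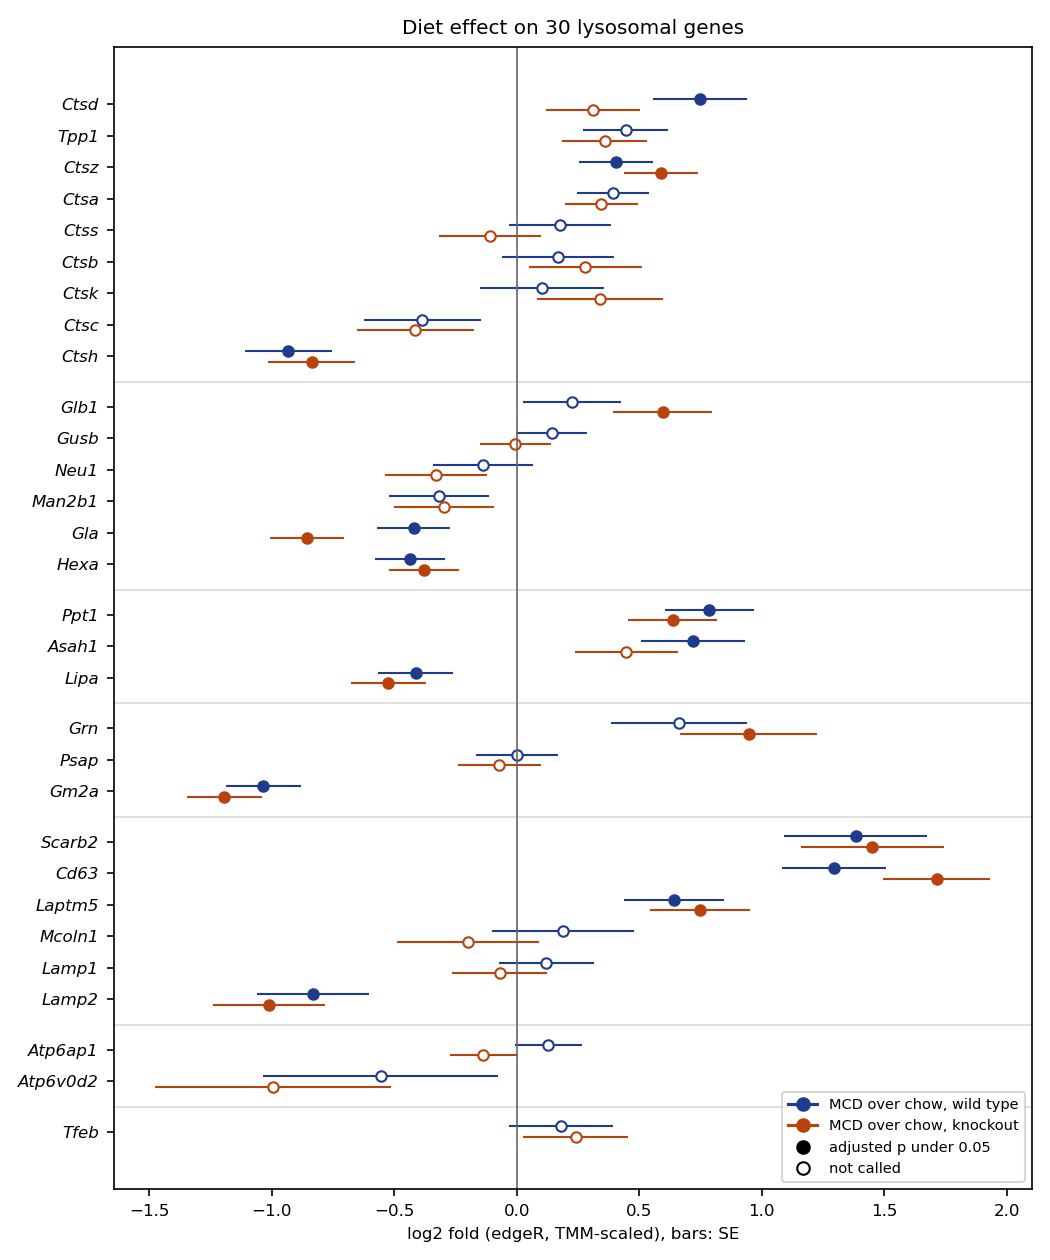
The log2 fold of MCD over chow (x axis, edgeR with TMM scaling, bars are the SE) is plotted for the 30 genes in the wild type (blue) and the knockout (orange), grouped by role, with filled points for adjusted p under 0.05. Cd63 and Scarb2 lie farthest right and Gm2a farthest left in both genotypes, while with library totals alone the called falls of Gla (wild type), Hexa and Lipa change sign.

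Among the 9 proteases, Ctsd and Ctsz rose and Ctsh fell in the wild type, and Ctsz rose and Ctsh fell in the knockout. Ctsd, the aspartic protease cathepsin D, stood at 172, 214, 153 and 227 CPM in the wild-type chow libraries and at 321, 368, 289 and 306 CPM in the wild-type MCD libraries. Knockout Ctsd levels were 229, 231, 238 and 368 CPM on chow and 376, 355, 266 and 326 CPM on MCD. All 4 wild-type MCD values lay above all wild-type chow values, whereas the library labelled knockout on chow 4 (368 CPM) lay within the range of the knockout MCD libraries. Ctsd had a log2 fold of 0.75 ± 0.19 (edgeR adjusted p = 0.00766) in the wild type and 0.31 ± 0.19 (edgeR adjusted p = 0.201) in the knockout. Without the 3 libraries the knockout fold was 0.44 (edgeR adjusted p = 0.0213), without knockout on chow 4 alone 0.51 (adjusted p = 0.0308), and with the message index as a covariate 0.59 (adjusted p = 0.0358).

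Ctsh, cathepsin H, a cysteine aminopeptidase, stood at 359, 385, 367 and 387 CPM in the wild-type chow libraries and at 211, 186, 231 and 157 CPM in the wild-type MCD libraries. Knockout Ctsh levels were 357, 436, 427 and 264 CPM on chow and 247, 199.96, 197 and 187 CPM on MCD. Every MCD value was below every chow value of its genotype. Ctsh fell by 0.93 ± 0.18 on the log2 scale in the wild type (edgeR adjusted p = 0.00106) and by 0.84 ± 0.18 in the knockout (edgeR adjusted p = 0.00183). With library totals its folds were -0.41 and -0.15, and the calls were lost (adjusted p = 0.113 and 0.546).

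Ctsz, cathepsin Z, a carboxypeptidase, stood at 34.6, 34.7, 38.3 and 29.2 CPM in the wild-type chow libraries and at 41.5, 48.3, 48.2 and 43.0 CPM in the wild-type MCD libraries. Knockout Ctsz levels were 31.5, 37.2, 35.1 and 29.3 CPM on chow and 64.4, 44.4, 47.6 and 43.9 CPM on MCD. The groups did not overlap in either genotype. Ctsz rose by a log2 fold of 0.41 ± 0.15 (edgeR adjusted p = 0.0461) in the wild type and 0.59 ± 0.15 (edgeR adjusted p = 0.00593) in the knockout. The knockout call held in all 10 other settings and with any 1 library left out. The wild-type call was near the threshold and was lost in 12 of the 16 fits with 1 library left out, where its fold was 0.34 to 0.46.

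Ctsa, the protective protein that stabilizes beta-galactosidase and neuraminidase, and Tpp1, a tripeptidyl peptidase, had wild-type MCD values above all chow values but did not pass the test (Ctsa 0.39 ± 0.15 (edgeR adjusted p = 0.0505), Tpp1 0.45 ± 0.17 (edgeR adjusted p = 0.0577)). Both passed without the 3 libraries, with log2 folds of 0.36 and 0.44 in the wild type. There Ctsa passed in 6 of 10 other settings and in 3 of 16 fits with 1 library left out, with folds of 0.31 to 0.91. Tpp1 passed in 5 of 10 and 3 of 16, with folds of 0.11 to 0.96. The groups of Ctsb, Ctsc, Ctsk and Ctss overlapped in both genotypes, and their log2 folds ran from -0.39 (Ctsc) to 0.18 (Ctss) in the wild type and from -0.41 (Ctsc) to 0.34 (Ctsk) in the knockout. Ctsc passed as lower in the knockout without the 3 libraries, at -0.45 (edgeR adjusted p = 0.0212). Ctsk, the osteoclast collagenase, rested on 16 to 61 counts per library. In the knockout the Ctss fold was -0.11 ± 0.21 with TMM scaling and 0.58 with library totals.

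Of the 6 glycosidases measured, none rose and Gla and Hexa fell in the wild type, while Glb1 rose and Gla and Hexa fell in the knockout. Gla, alpha-galactosidase A, the enzyme lacking in Fabry disease, stood at 20.2, 23.2, 17.5 and 22.7 CPM in the wild-type chow libraries and at 15.0, 14.6, 14.9 and 17.99 CPM in the wild-type MCD libraries. Knockout Gla levels were 30.4, 24.6, 23.9 and 31.6 CPM on chow and 17.5, 14.2, 13.2 and 16.1 CPM on MCD. The knockout MCD values lay below all knockout chow values, and the wild-type groups overlapped. Gla had a log2 fold of -0.42 ± 0.15 (edgeR adjusted p = 0.0396) in the wild type and -0.86 ± 0.15 (edgeR adjusted p = 0.000457) in the knockout, which became 0.11 and -0.12 with library totals, neither of them called. The wild-type call held in 7 of 10 other settings and in 9 of 16 fits with 1 library left out; with the index as a covariate the fold was -0.26 (adjusted p = 0.216) and with no filter on low counts -0.41 (adjusted p = 0.0670). The knockout call held in 9 of 10 settings and in all 16 such fits.

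Hexa, the alpha subunit of beta-hexosaminidase, which cleaves the ganglioside GM2, stood at 119, 127, 97.9 and 141 CPM in the wild-type chow libraries and at 95.1, 89.5, 86.7 and 87.7 CPM in the wild-type MCD libraries. Knockout Hexa levels were 129, 126, 125 and 146 CPM on chow and 122, 99.8, 86.6 and 96.1 CPM on MCD. Both MCD groups lay below their chow groups. Hexa had log2 folds of -0.44 ± 0.14 (edgeR adjusted p = 0.0274) and -0.38 ± 0.14 (edgeR adjusted p = 0.0435), and with library totals these turned to 0.09 and 0.34. Its wild-type call held in 7 of 10 other settings and in 11 of 16 fits with 1 library left out, with a fold of -0.25 (adjusted p = 0.185) where the index was a covariate and of -0.34 (adjusted p = 0.0931) without the libraries numbered 4. Its knockout call held in 4 of 10 other settings and in 4 of 16 fits with 1 library left out.

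Glb1, beta-galactosidase, stood at 22.5, 23.6, 16.0 and 20.2 CPM in the wild-type chow libraries and at 22.8, 23.8, 23.8 and 26.1 CPM in the wild-type MCD libraries. Knockout Glb1 levels were 17.5, 19.4, 18.7 and 8.84 CPM on chow and 20.4, 26.3, 25.9 and 25.0 CPM on MCD. The knockout groups did not overlap, and the library labelled knockout on chow 4 was the lowest. Glb1 had a log2 fold of 0.23 ± 0.20 (edgeR adjusted p = 0.398) in the wild type and 0.60 ± 0.20 (edgeR adjusted p = 0.0277) in the knockout. The knockout call held in 7 of 10 other settings and in 13 of 16 fits with 1 library left out. With the message index as a covariate the knockout fold of Glb1 was 0.27 (edgeR adjusted p = 0.290). It was 0.58 (edgeR adjusted p = 0.0892) with only the 2 groups compared and 0.39 (edgeR adjusted p = 0.0870) without the libraries numbered 4. Gusb (beta-glucuronidase), Man2b1 (an alpha-mannosidase) and Neu1 (sialidase) did not pass in either genotype with all libraries, TMM scaling and no covariate, with log2 folds of -0.32 (Man2b1) to 0.14 (Gusb) in the wild type and -0.33 (Neu1) to -0.01 (Gusb) in the knockout, the last turning to 0.70 with library totals, where Gusb passed in both genotypes. Man2b1 passed as lower with the index as a covariate, at -0.73 (adjusted p = 0.00301) in the wild type and -0.74 (adjusted p = 0.00322) in the knockout, and in the wild type without the 3 libraries, at -0.46 (adjusted p = 0.00506). With library totals its folds turned to 0.19 and 0.41, neither called.

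All 3 lipid hydrolases passed in the wild type, Ppt1 and Asah1 upwards and Lipa downwards, and Ppt1 and Lipa passed in the same directions in the knockout. Ppt1, palmitoyl-protein thioesterase, which removes fatty acids from proteins, stood at 15.9, 16.6, 14.0 and 21.9 CPM in the wild-type chow libraries and at 26.6, 35.8, 29.0 and 26.8 CPM in the wild-type MCD libraries. Knockout Ppt1 levels were 20.6, 22.1, 24.0 and 14.5 CPM on chow and 37.8, 31.9, 29.1 and 27.5 CPM on MCD. In each genotype all MCD values were above all chow values. Ppt1 rose by a log2 fold of 0.79 ± 0.18 (edgeR adjusted p = 0.00414) in the wild type and 0.64 ± 0.18 (edgeR adjusted p = 0.0118) in the knockout, and it kept both calls in all 10 other settings and all 16 fits with 1 library left out.

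Asah1, acid ceramidase, stood at 19.5, 24.2, 24.8 and 34.4 CPM in the wild-type chow libraries and at 44.1, 42.3, 39.2 and 43.9 CPM in the wild-type MCD libraries. Knockout Asah1 levels were 28.7, 24.2, 25.1 and 43.9 CPM on chow and 54.2, 37.2, 34.5 and 40.0 CPM on MCD. The wild-type groups were separate, and the knockout groups overlapped. Asah1 rose by a log2 fold of 0.72 ± 0.21 (edgeR adjusted p = 0.0159) in the wild type and had a fold of 0.45 ± 0.21 (edgeR adjusted p = 0.1003) in the knockout, where it passed without the 3 libraries at 0.52 (edgeR adjusted p = 0.00231), without knockout on chow 4 alone at 0.67 (adjusted p = 0.0130) and with the index as a covariate at 0.91 (adjusted p = 0.00102).

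Lipa, lysosomal acid lipase, which frees cholesterol and fatty acids from lipoproteins and lipid droplets, stood at 267, 246, 193 and 286 CPM in the wild-type chow libraries and at 209, 169, 204 and 162 CPM in the wild-type MCD libraries. Knockout Lipa levels were 246, 316, 269 and 253 CPM on chow and 191, 179, 185 and 197 CPM on MCD. The knockout MCD values were below all knockout chow values, and the wild-type groups overlapped. Lipa had a log2 fold of -0.41 ± 0.15 (edgeR adjusted p = 0.0478) in the wild type and -0.53 ± 0.15 (edgeR adjusted p = 0.0134) in the knockout, with 0.10 and 0.19 under library totals. The wild-type call was lost in 9 of the 10 other settings, and the knockout call in library totals only.

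Gm2a fell in both genotypes and was the only one of the 30 whose fall was called in all 10 other settings and all 16 fits with 1 library left out. Gm2a, the activator that presents ganglioside GM2 to beta-hexosaminidase, stood at 472, 567, 421 and 353 CPM in the wild-type chow libraries and at 209.9, 233, 235 and 206 CPM in the wild-type MCD libraries. Knockout Gm2a levels were 528, 495, 527 and 459.8 CPM on chow and 232, 213, 209 and 225 CPM on MCD. The MCD groups were both narrow, from 206 to 235 CPM, and lay below every chow library. Gm2a fell by 1.04 ± 0.15 on the log2 scale in the wild type (edgeR adjusted p = 0.000144) and by 1.19 ± 0.15 in the knockout (edgeR adjusted p = 3.91e-05). With library totals the folds were -0.52 and -0.48 and still passed the test.

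Grn, progranulin, a secreted and lysosomal glycoprotein, stood at 81.3, 96.9, 67.8 and 55.7 CPM in the wild-type chow libraries and at 124, 136, 102 and 116 CPM in the wild-type MCD libraries. Knockout Grn levels were 72.7, 77.1, 77.4 and 26.9 CPM on chow and 83.4, 141, 123 and 143 CPM on MCD. The groups were separate in both genotypes, and the library labelled knockout on chow 4 stood far below the rest. Grn rose by a log2 fold of 0.95 ± 0.28 (edgeR adjusted p = 0.0137) in the knockout and had a fold of 0.66 ± 0.28 (edgeR adjusted p = 0.0752) in the wild type. Without the 3 libraries the wild-type fold was 0.54 (edgeR adjusted p = 0.00356), and with the message index as a covariate the knockout fold was 0.34 (adjusted p = 0.189). The wild-type fold passed in 4 of 10 other settings and in 1 of 16 fits with 1 library left out, and ran from 0.02 to 1.18. The knockout call held in 8 of 10 settings and in all 16 such fits. Psap, which encodes the precursor of the saposins, activators of sphingolipid hydrolases, had log2 folds of 0.00 ± 0.17 and -0.07 ± 0.17, the second turning to 0.65 with library totals.

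Of the 6 membrane proteins, Cd63, Scarb2 and Laptm5 rose and Lamp2 fell in both genotypes, and the rises of Cd63 and Scarb2 were the largest of the 30 genes. Cd63, a tetraspanin of late endosomes, lysosomes and exosomes, stood at 25.1, 30.8, 37.1 and 30.3 CPM in the wild-type chow libraries and at 94.0, 69.1, 51.4 and 87.8 CPM in the wild-type MCD libraries. Knockout Cd63 levels were 21.2, 18.5, 24.6 and 13.7 CPM on chow and 66.7, 51.4, 75.2 and 63.1 CPM on MCD. No MCD value came within the chow range of its genotype. Cd63 rose by a log2 fold of 1.30 ± 0.21 (edgeR adjusted p = 0.000356) in the wild type and 1.72 ± 0.22 (edgeR adjusted p = 3.49e-05) in the knockout.

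Scarb2, LIMP-2, the receptor that carries glucocerebrosidase to the lysosome, stood at 16.6, 18.6, 9.25 and 28.7 CPM in the wild-type chow libraries and at 43.8, 53.5, 42.9 and 51.5 CPM in the wild-type MCD libraries. Knockout Scarb2 levels were 14.4, 16.4, 22.5 and 10.4 CPM on chow and 31.3, 51.6, 36.6 and 55.3 CPM on MCD. Although the chow libraries spread widely, all MCD libraries were above them. Scarb2 rose by a log2 fold of 1.38 ± 0.29 (edgeR adjusted p = 0.00210) and 1.45 ± 0.29 (edgeR adjusted p = 0.00133). Cd63 and Scarb2 kept their calls in both genotypes in all 10 other settings and all 16 fits with 1 library left out.

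Laptm5, a lysosomal protein known mainly from blood cells, stood at 19.9, 23.6, 21.4 and 17.6 CPM in the wild-type chow libraries and at 28.4, 44.8, 26.1 and 29.4 CPM in the wild-type MCD libraries. Knockout Laptm5 levels were 23.2, 20.1, 23.7 and 12.9 CPM on chow and 28.9, 37.7, 33.5 and 34.2 CPM on MCD. The diets were separate in both genotypes. Laptm5 rose by a log2 fold of 0.64 ± 0.20 (edgeR adjusted p = 0.0229) and 0.75 ± 0.20 (edgeR adjusted p = 0.00871). With the message index as a covariate the folds were 0.31 and 0.43, and neither passed (adjusted p = 0.235 and 0.104).

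LAMP1 and LAMP2 are the most abundant glycoproteins of the lysosomal membrane, and LAMP2 also serves in chaperone-mediated autophagy. Lamp2 stood at 308, 386, 431 and 429.8 CPM in the wild-type chow libraries and at 229, 205, 244 and 195 CPM in the wild-type MCD libraries. Knockout Lamp2 levels were 386, 393, 391 and 764 CPM on chow and 314, 208, 212 and 225 CPM on MCD. Every MCD library was below every chow library of its genotype, and the libraries labelled knockout on chow 4 and on MCD 1 were the highest of their groups. Lamp2 fell by 0.83 ± 0.23 on the log2 scale in the wild type (edgeR adjusted p = 0.0108) and by 1.01 ± 0.23 in the knockout (edgeR adjusted p = 0.00273). The calls were lost with library totals (-0.29 and -0.26) and with the message index as a covariate (-0.36 and -0.48).

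Lamp1 stood at 292, 360.0, 303 and 473 CPM in the wild-type chow libraries and at 365, 388, 424 and 376 CPM in the wild-type MCD libraries. Knockout Lamp1 levels were 424, 367, 398 and 562 CPM on chow and 533, 394, 350.0 and 391 CPM on MCD. The diets overlapped in both genotypes. Lamp1 had log2 folds of 0.12 ± 0.19 (edgeR adjusted p = 0.652) and -0.07 ± 0.19 (edgeR adjusted p = 0.789), the second turning to 0.66 (adjusted p = 0.00414) with library totals and to 0.07 (adjusted p = 0.788) without knockout on chow 4. The wild-type fold passed with the index as a covariate, at 0.49 (adjusted p = 0.0268), and with library totals, at 0.66 (adjusted p = 0.00589). Mcoln1, the calcium channel TRPML1, had folds of 0.19 ± 0.29 (edgeR adjusted p = 0.640) and -0.20 ± 0.29 (edgeR adjusted p = 0.599). It too passed in the wild type with the index as a covariate, at 0.78 (adjusted p = 0.0154), and with library totals, at 0.72 (adjusted p = 0.0292). Its direction in the knockout rested on 1 library: knockout on chow 4 read 93.3 CPM where the other 3 read 33.3 to 37.0, and without it the fold was 0.31 and did not pass.

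**Figure D2:**
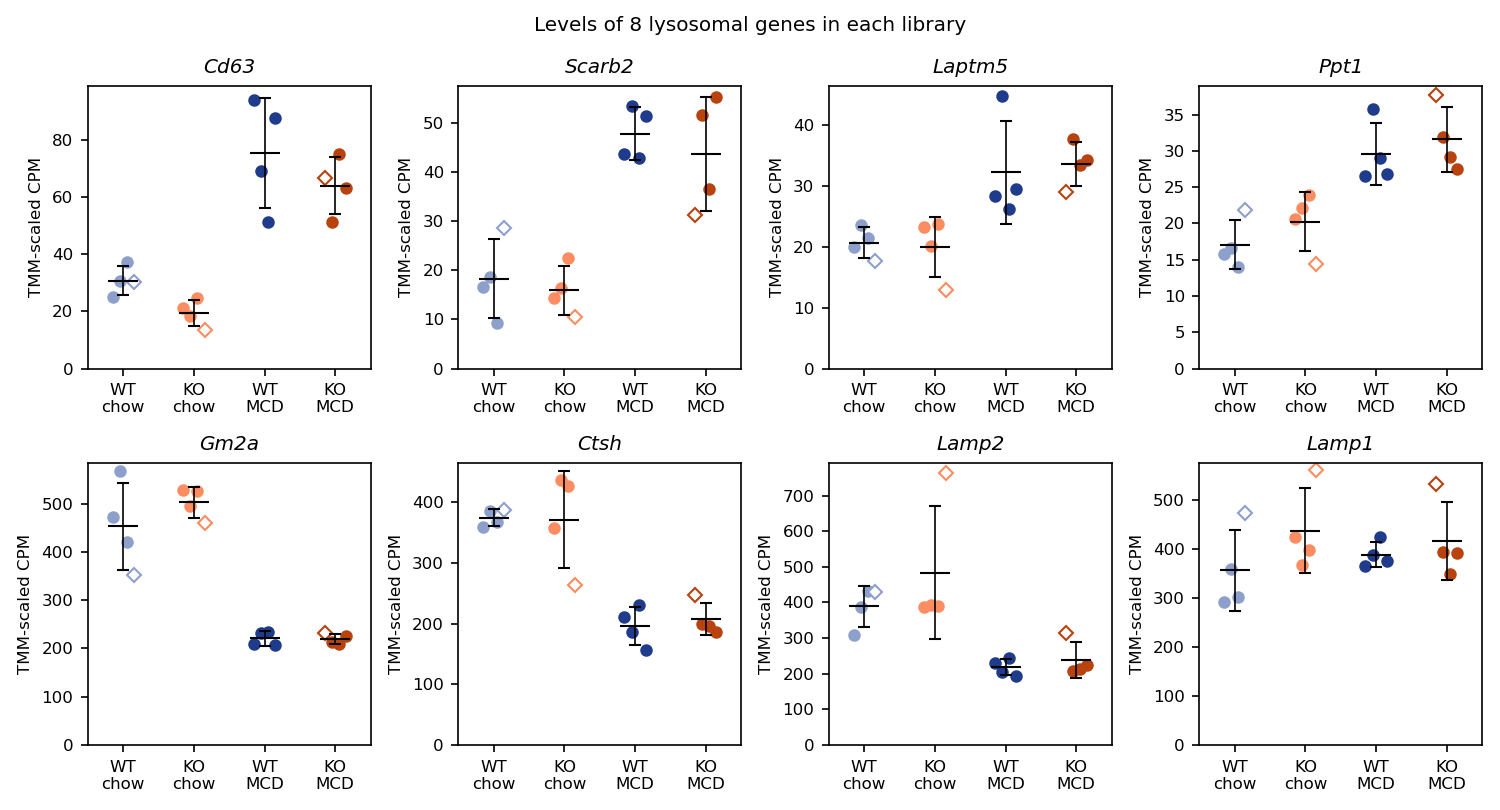
TMM-scaled CPM (y axis) of 8 lysosomal genes is shown for each of the 16 libraries by group, with the mean and SD as bars and open diamonds for the 3 libraries that stood apart. In Cd63, Scarb2, Laptm5 and Ppt1 all MCD libraries sit above the chow libraries of their genotype, in Gm2a, Ctsh and Lamp2 below them, and in Lamp1 they overlap. Of all genes tested, 20.1% lay wholly above and 17.9% wholly below in the wild type, and 17.6% and 14% in the knockout.

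A ratio of 2 genes within a library is not touched by the scaling. These ratios were chosen after the values were seen and are given as a description with no test. The log2 ratio of Lamp1 to Lamp2 was -0.137 ± 0.269 on chow and 0.834 ± 0.128 on MCD in the wild type, and -0.096 ± 0.25 and 0.802 ± 0.087 in the knockout (SD, n = 4). All 8 MCD libraries lay above all 8 chow libraries. For Hexa over Gm2a, the enzyme subunit over its activator, the ratio was -1.89 ± 0.387 and -1.30 ± 0.135 in the wild type and -1.94 ± 0.189 and -1.13 ± 0.154 in the knockout, with no overlap in the knockout and with wild-type chow library 4 (-1.32) inside the MCD range. For Ctsd over Ctsh it went from -0.985 ± 0.223 to 0.721 ± 0.316 in the wild type and from -0.482 ± 0.65 to 0.667 ± 0.183 in the knockout, where the library labelled knockout on chow 4 (0.478) lay inside the MCD range. Without the 3 libraries the change in the ratio was 1.06 and 0.795 for Lamp1 over Lamp2, 0.784 and 0.83 for Hexa over Gm2a, and 1.78 and 1.49 for Ctsd over Ctsh (wild type first in each pair).

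**Figure D3:**
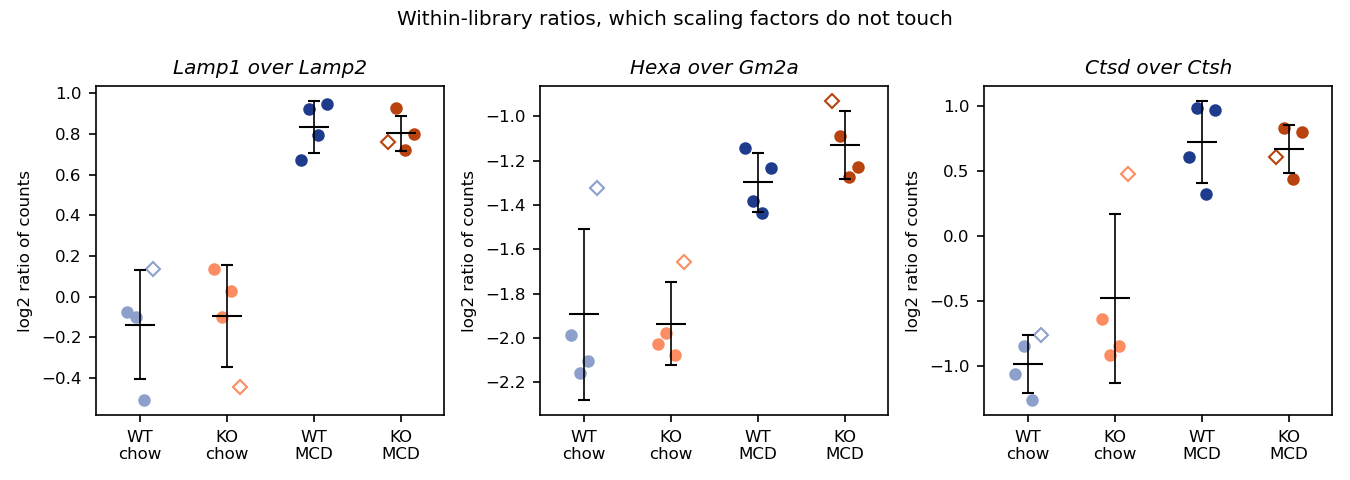
The log2 ratio of the counts of 2 genes in the same library (y axis) is shown for 3 gene pairs by group, with the mean and SD as bars and open diamonds for the 3 libraries that stood apart. MCD libraries lie above the chow libraries of their genotype in each panel, except that wild-type chow library 4 reaches the MCD range in Hexa over Gm2a and the library labelled knockout on chow 4 does so in Ctsd over Ctsh.

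The pump proteins and Tfeb did not pass the test. Atp6v0d2, a subunit isoform known from osteoclasts and macrophages, was counted 9 to 40 times per library and had log2 folds of -0.56 ± 0.48 (edgeR adjusted p = 0.386) and -0.99 ± 0.48 (edgeR adjusted p = 0.110). The accessory subunit Atp6ap1 had folds of 0.13 ± 0.14 (edgeR adjusted p = 0.482) and -0.14 ± 0.14 (edgeR adjusted p = 0.438), the second turning to 0.59 with library totals. Tfeb, the CLEAR-binding factor, stood at 7.97, 8.00, 8.52 and 7.61 CPM in the wild-type chow libraries and at 7.04, 11.4, 7.70 and 10.2 CPM in the wild-type MCD libraries. Knockout Tfeb levels were 9.77, 6.01, 7.92 and 4.82 CPM on chow and 7.79, 6.93, 9.31 and 9.77 CPM on MCD. The diets overlapped in both genotypes. Tfeb had log2 folds of 0.18 ± 0.21 (edgeR adjusted p = 0.531) and 0.24 ± 0.22 (edgeR adjusted p = 0.386), and passed only with library totals, at 0.72 and 0.97. TFEB is controlled largely by phosphorylation and entry into the nucleus, which RNA levels do not show.

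**Figure D4:**
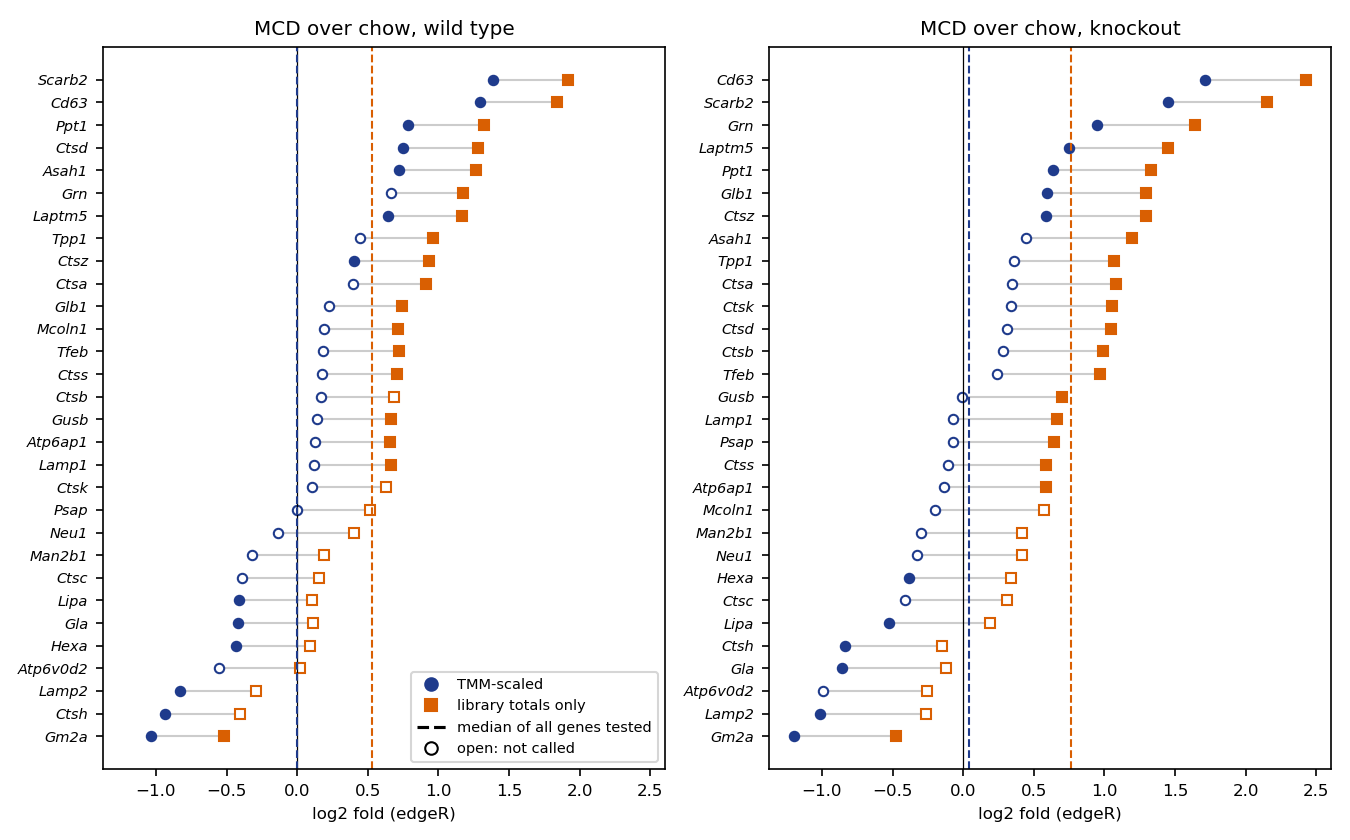
The log2 fold of MCD over chow (x axis) of the 30 genes is drawn with TMM scaling (blue circles) and with library totals alone (orange squares), in the wild type (left) and the knockout (right), with open symbols for folds not called and dashed lines at the median of all genes tested. Every gene shifts right by a similar amount with library totals, and in both panels Gm2a alone stays called below 0.

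Other genes of the lysosomal pathway, from lists chosen with earlier results known, also moved both ways. The counts in this and the following paragraphs stand beside the background given above, of 18.2% of all genes higher and 15.9% lower in the wild type and 21.9% and 18.5% in the knockout. Of 28 further hydrolases tested, 9 rose and 3 fell in the wild type and 10 and 2 in the knockout (32.1% and 10.7% of them, then 35.7% and 7.14%), with a median log2 fold of 0.329 and 0.332. Dpp7, a dipeptidyl peptidase, rose by 1.70 ± 0.22 and 1.80 ± 0.22, Pla2g15, the lysosomal phospholipase, by 1.30 ± 0.18 and 1.06 ± 0.18, and Galc, galactosylceramidase, by 1.41 ± 0.30 and 2.21 ± 0.32. Cpq, a carboxypeptidase, fell by 1.61 ± 0.15 and 1.81 ± 0.15. Of 24 further membrane and transport proteins, 4 rose and 5 fell in the wild type and 5 and 6 in the knockout (16.7% and 20.8% of them, then 20.8% and 25%). Clcn7, the chloride-proton exchanger, and Ostm1, its partner subunit, rose by 0.82 ± 0.20 and 0.67 ± 0.18 in the wild type and 0.81 ± 0.20 and 0.74 ± 0.18 in the knockout, while Npc2, the lumenal cholesterol carrier, fell by 0.41 ± 0.14 and 0.60 ± 0.15. Of 16 further pump subunits, 3 rose and 0 fell in the wild type (6 at unadjusted p under 0.05) and 2 rose and 3 fell in the knockout (18.8% and 0% of them, then 12.5% and 18.8%); Atp6v0a2 and Atp6v1b2 rose in both, by 0.91 ± 0.20 and 0.80 ± 0.22 in the wild type.

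The sorting of new hydrolases to the lysosome relies on receptors and adaptors. Of 11 genes of mannose 6-phosphate tagging and sorting, 3 rose and 0 fell in the wild type (5 at unadjusted p under 0.05) and 3 rose and 1 fell in the knockout (27.3% and 0% of them, then 27.3% and 9.09%). Igf2r, the large mannose 6-phosphate receptor, rose by 1.82 ± 0.24 (edgeR adjusted p = 5.19e-05) in the wild type and 1.65 ± 0.24 (edgeR adjusted p = 8.98e-05) in the knockout. Sort1, the sorting receptor sortilin, rose by 0.82 ± 0.20 and 1.24 ± 0.21, and the adaptor Gga2 by 0.73 ± 0.14 and 0.42 ± 0.14. Of 19 relatives of TFEB and genes of mTORC1 control at the lysosome, 5 rose and 2 fell in the wild type and 3 and 4 in the knockout (26.3% and 10.5% of them, then 3 of the 19 and 21.1%). Tsc1 and Fnip2 rose in both genotypes, by 0.77 ± 0.25 and 1.40 ± 0.36 in the wild type, and Lamtor2, a Ragulator subunit, fell by 1.26 ± 0.34 and 1.28 ± 0.34. Of 23 autophagy genes, 2 rose and 3 fell in the wild type and 3 and 6 in the knockout (8.7% and 13% of them, then 13% and 26.1%), with Gabarapl2, an autophagosome protein of the Atg8 family, falling by 1.06 ± 0.20 and 1.14 ± 0.21. None of 4 cathepsin inhibitors passed in edgeR (1 at unadjusted p under 0.05 in the wild type, 0 in the knockout).

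Markers of other cells moved with the diet beside the lysosomal genes. Of 21 macrophage markers tested, 7 rose and 2 fell in the wild type and 7 and 4 in the knockout (33.3% and 9.52% of them, then 33.3% and 19%); this list shares Cd68 with the membrane protein list. Gpnmb and Trem2, genes of lipid-laden macrophages, rose by 4.57 ± 0.39 and 4.90 ± 0.75 in the wild type and 4.05 ± 0.38 and 5.54 ± 0.79 in the knockout. Trem2 was near the limit of detection on chow, at 0 to 0.433 CPM in the wild type, against 2.498 to 12.53 CPM on MCD. Clec4f and Marco, genes of resident Kupffer cells, fell by 1.51 ± 0.38 and 1.64 ± 0.58 in the wild type and 1.68 ± 0.38 and 2.81 ± 0.61 in the knockout. The summed level of the 22 macrophage markers measured, tested or not, was 679.6 to 900.4 CPM in the wild type on chow and 774 to 1262 on MCD. In the knockout it was 710.1 to 1075 and 807 to 1198. Of 8 markers of other leukocytes tested, 2 rose and 1 fell in each genotype (25% and 12.5%). The sum over the 13 measured, tested or not, was 30.5 to 52.0 and 37.6 to 52.1 CPM on chow. On MCD it was 62.7 to 97.3 and 54.7 to 85.5 CPM (each pair in the order of wild type and knockout). Mpo was at 0 in all libraries.

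None of 15 hepatocyte markers rose in edgeR (9 had an unadjusted p under 0.05 in each genotype), and 9 fell in wild-type and 8 in knockout livers (60% and 53.3%), with Alb at -0.82 ± 0.18 and -1.05 ± 0.18. Their sum was 193946 to 237770 and 199178 to 265468 CPM on chow and 111638 to 155816 and 116794 to 143698 CPM on MCD, in the same order. Stellate cell markers rose in 3 of 10 in the wild type and 4 of 10 in the knockout with none falling, endothelial markers in 2 and 3 of 7 with 1 and 0 falling, bile duct markers in 2 of 4 in each genotype, and osteoclast genes in 0 and 1 of 3, with Calcr at 0 in all libraries. The shares of stellate cell markers that rose, 30% and 40%, stand beside 18.2% and 21.9% of all genes, and the other 3 lists are of 3 to 7 genes. The part of these cells in the changes of the lysosomal genes was not tested.

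The comparison of knockout with wild type asks whether loss of TSPO alters these genes. On chow and on MCD, 0 of the 30 passed in edgeR in either direction, and DESeq2 and limma also called 0. The background was as low, with 0% of all genes higher and 0.00896% lower in the knockout on chow, and 0% and 0% on MCD. At an unadjusted p under 0.05 there were 4 genes on chow and 0 on MCD. On chow Cd63 had a log2 fold of -0.66 ± 0.22 (unadjusted p = 0.00737, edgeR adjusted p = 0.449), and all 4 knockout values, 13.7 to 24.6 CPM, lay below all wild-type values, 25.1 to 37.1 CPM. Gla (0.40 ± 0.15) and Ctsd (0.48 ± 0.19) lay above the wild type in all 4 libraries. Over all genes tested, 1.76% lay wholly above and 2.59% wholly below the wild type on chow, beside 2 and 1 of the 30. The groups of Atp6ap1 (0.33 ± 0.14) overlapped. On MCD the 2 genotypes overlapped in all 30 genes, as they did in 99.2% of all genes tested, and the folds ran from -0.24 (Cd63) to 0.17 (Hexa). Without the 3 libraries Ppt1 alone passed on chow, at 0.52 (edgeR adjusted p = 0.0488), against 0.25 ± 0.18 with all libraries; of all genes 1.81% were higher and 2.79% lower in that setting. These folds follow the labels, although the libraries labelled knockout on chow 4 and on MCD 1 had Tspo near the level of the wild type on chow.

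The difference of the diet effects, knockout minus wild type, was called in 0 of the 30 genes in edgeR, DESeq2 and limma, with 0 at an unadjusted p under 0.05 and 0% and 0% of all genes higher or lower. The largest differences were for Gla (-0.44 ± 0.21), Atp6v0d2 (-0.44 ± 0.68), Ctsd (-0.44 ± 0.27) and Cd63 (0.42 ± 0.30). The standard errors ran from 0.194 to 0.68 on the log2 scale, so differences of that size were not detectable with 4 libraries a group. The 4 calls made in 1 genotype only (Ctsd, Asah1, Glb1 and Grn) had differences of -0.44 ± 0.27, -0.27 ± 0.30, 0.37 ± 0.28 and 0.29 ± 0.39.

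**Figure D5:**
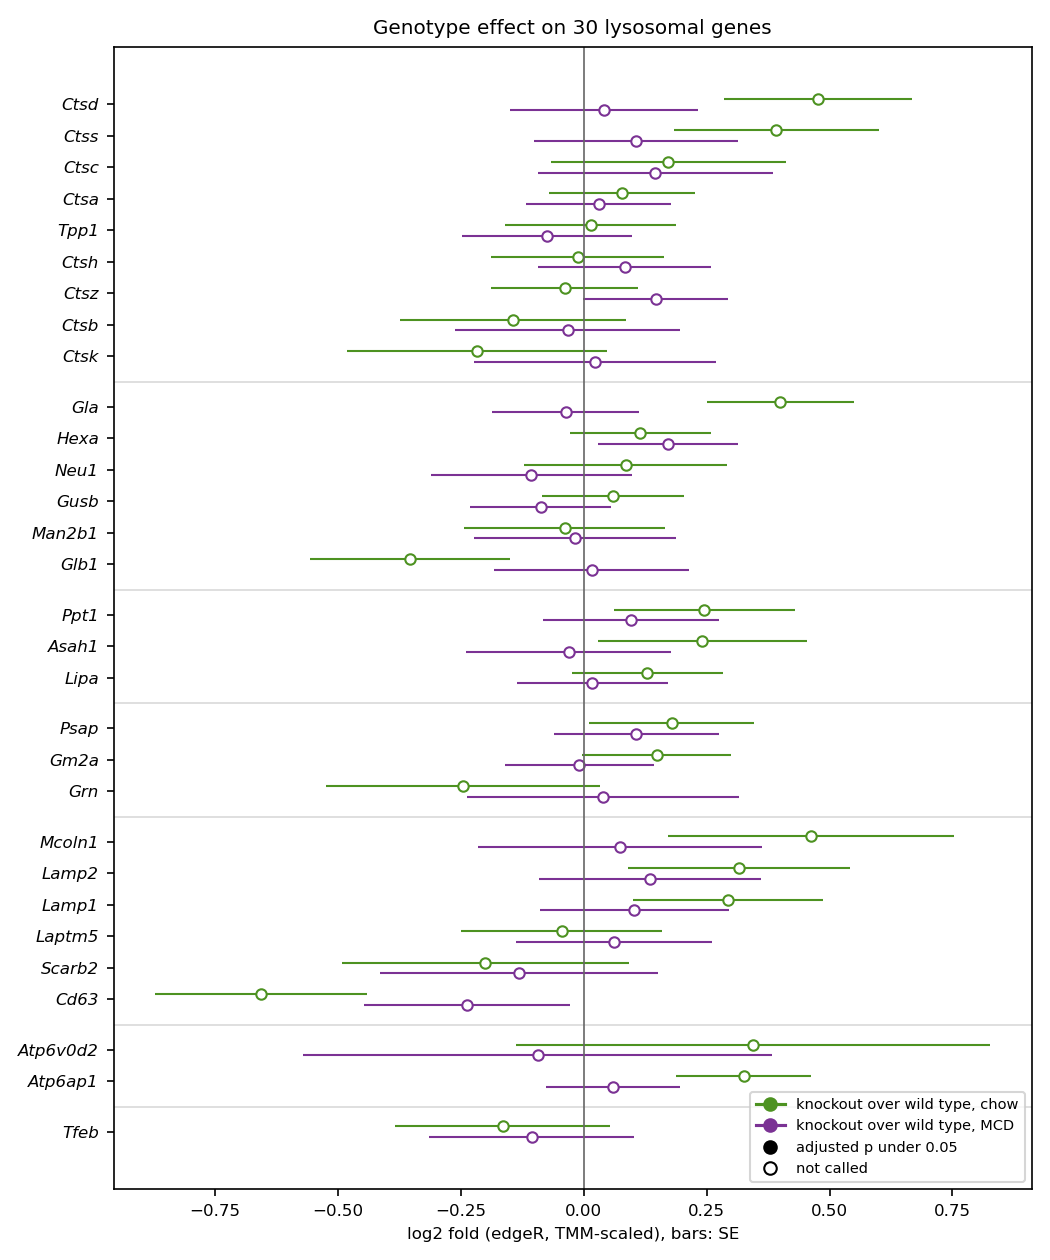
The genotype effect, as the log2 fold of the knockout group over the wild-type group (x axis, edgeR with TMM scaling, bars are the SE) is plotted for the 30 genes on chow (green) and on MCD (purple), grouped by role, with open points for adjusted p of 0.05 or more. All points are open, and on chow Cd63 lies farthest left and Ctsd farthest right.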

How the data were processed

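Liver mRNA of 16 libraries was measured with a poly(A)-enriching stranded kit, per the labels' protocols. Tools named in the submitters' processing notes are Bowtie2 2.1.0 and RSEM 1.2.15, and the build named there is rn6, with no parameters. The authors deposited expected counts per gene, of which 88.9% of values were whole numbers, and a second table of TMM-scaled CPM, treated here as a signal because its columns sum to 752514 to 1546939. Expected counts share ambiguous reads among similar genes, so members of gene families can exchange reads.

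Expected counts were rounded and tested in edgeR 4.0.16 (R 4.3.3): TMM factors, filterByExpr, 1 term per group, robust quasi-likelihood fit (12 residual degrees of freedom, biological coefficient of variation 28%), 5 contrasts and Benjamini-Hochberg adjustment over 11162 genes, called at 0.05. SE is the log2 fold divided by the square root of F. The steps were tested on simulated counts without libraries that stand apart and without a broad shift with the diet. That check does not bear on either of these. Alternatives were DESeq2 1.42.0, upper quartile factors, no filter, only the groups compared, a replicate block, leaving out libraries, the index as a covariate (mean log2 CPM, prior count 2, of 14 long minus 24 short messages), and limma 3.58.1 on log2(deposited signal + 1). Library totals were added after the data were seen. No 2 libraries of a group agreed within sampling noise (chi-square per gene of 15.25 or more in 24 pairs).

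The genes and all lists were chosen with earlier results of these data known. Genes called in a diet contrast at 1 CPM or more, and Tfeb, Lamp1 and Lamp2, are given by library; from other lists, up to 4 called genes of smallest p. Gpnmb, Trem2, Clec4f, Marco, Cd68, Mpo and Calcr were named after their values were seen where that rule does not cover them.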

Additional observations from a re-analysis of the deposited data

Results flagged for a closer look

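Of 120 gene and group combinations, 12 held 1 library far from the other 3, by a gap larger than Dixon's 95% value for 4 samples, where chance gives about 1 in 20. Of the 12, 10 were in the libraries labelled knockout on chow 4 and knockout on MCD 1.

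In knockout on chow 4, Lamp2 read 764 CPM against 386.4 to 392.8 in the other 3, Mcoln1 93.33 against 33.27 to 37.02, Ctsd 368 against 228.8 to 237.7, and Atp6v0d2 4.285 against 1.531 to 1.704. In the same library Grn read 26.91 against 72.69 to 77.43 CPM, Man2b1 118.9 against 183.8 to 196.5, and Psap 491.8 against 578.4 to 589.4. In knockout on MCD 1, Lamp2 read 314.2 against 207.6 to 224.8 CPM, Ctsb 329.6 against 484.8 to 516, and Man2b1 102.1 against 148.8 to 156.7. The other 2 were Gusb in wild type on chow 2, at 38.58 against 30.34 to 31.53 CPM, and Gla in wild type on MCD 4, at 17.99 against 14.62 to 14.99 CPM.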

How the results depend on the processing

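The calls of Ctsd, Ppt1, Scarb2, Cd63 and Gm2a in the wild type and of Ctsz, Ppt1, Scarb2, Cd63 and Gm2a in the knockout held in all 10 alternatives and all 16 fits with 1 library left out. With library totals only, chosen after seeing the data, 17 genes rose and 1 fell in the wild type and 19 rose and 1 fell in the knockout; log2 folds turned to 0.112 (Gla), 0.092 (Hexa) and 0.103 (Lipa) in the wild type and to 0.58 (Ctss), 0.34 (Hexa), 0.70 (Gusb), 0.19 (Lipa), 0.65 (Psap), 0.66 (Lamp1) and 0.59 (Atp6ap1) in the knockout. The shift follows from leaving out the TMM factors. With the index as a covariate 3 fell in the wild type, Gm2a, Ctsh and Man2b1, the last of them not called with all libraries and no covariate; the cause was not tested. Without the 3 libraries that stood apart 11 genes rose in the knockout with the diet and 1 was higher in the knockout on chow. Leaving out 1 library gave 4 to 10 rises and 3 to 6 falls in the wild type, with 4 without wild type on chow 1 and 3 without wild type on chow 2, chow 4, MCD 2 or MCD 3, and 6 to 10 rises and 5 to 6 falls in the knockout. DESeq2 gave 9 rises and 6 falls in the wild type and 7 and 6 in the knockout. For DESeq2 and for the fits with 1 library left out, the shares of all genes are not given here. Those counts therefore show nothing particular to the lysosomal genes.

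With a replicate block, 8 rose and 5 fell in the wild type and 7 and 6 in the knockout, again without the shares of all genes beside them. Same-numbered libraries showed no regular shared deviation. Their correlations over 24 pairs ran from -0.381 to 0.511, 7 were over 0.1, and 4 of 16 libraries correlated best with their own number. The highest was between wild type on chow 4 and knockout on chow 4, both among the 3 libraries that stood apart. Depth limits Atp6v0d2 and Ctsk most.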
